A study of Mus musculus with 12 samples.

Results

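Fbp1, Pck1, G6pc, Khk, Gatm, Miox, Kap, Acsm2 and Hpd are 9 genes of the kidney proximal tubule that were chosen by name, and all 9 were measured, out of 19938 genes on the array. Each of them has 1 probe set that the annotation assigns to that gene alone. All but Kap encode enzymes of small-molecule metabolism, and Kap, the kidney androgen-regulated protein, is a secreted protein of the same cells. Total RNA of whole kidneys from female mice was hybridised to 12 whole-transcript arrays, 4 in each of 3 groups. The wild-type groups carry the strain label C57BL/6 and received either recombinant FGF23 at 500 ng per g body weight or 100 µl of saline vehicle into the peritoneum. The third group, KL null, lacks functional klotho, carries the strain label 129/SvEv/C57BL/6 and received vehicle. All mice were killed 1 hour after the injection, after 5 to 8 weeks on a standard diet. Genotype and strain label go together here, so they cannot be told apart. The labels do not say that each replicate is a separate mouse, so the p-values reflect only variation among these samples, which may be technical.

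The proximal tubule reabsorbs most of the filtered solute and is the segment of the nephron that makes glucose. Gluconeogenesis runs from lactate and glutamine through phosphoenolpyruvate carboxykinase (Pck1), fructose-1,6-bisphosphatase (Fbp1) and glucose-6-phosphatase (G6pc). The same cells degrade fructose, inositol and tyrosine and make the creatine precursor guanidinoacetate. FGF23 is a bone hormone that acts on this segment through FGF receptors with klotho as co-receptor, and lowers phosphate reabsorption and the synthesis of active vitamin D.

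The upstream sequences of 6 of the 9 genes are printed here because the arrays separated them into genes that fell in KL null kidney (Kap, Gatm and Miox), a gene that rose (Hpd) and the gluconeogenic genes Pck1 and G6pc, which were not called in any of the 3 comparisons. Each run is the 250 bases before the RefSeq transcription start, on GRCm38.p6, 5′ to 3′ in the direction of the gene. Capitals mark matches to the motifs searched. The window of Kap is chr6:133853668-133853917 on the minus strand, that of Gatm chr2:122611278-122611527 (minus), that of Miox chr15:89334223-89334472 (plus), that of Hpd chr5:123182724-123182973 (minus), that of Pck1 chr2:173152823-173153072 (plus) and that of G6pc chr11:101367466-101367715 (plus).
Kap: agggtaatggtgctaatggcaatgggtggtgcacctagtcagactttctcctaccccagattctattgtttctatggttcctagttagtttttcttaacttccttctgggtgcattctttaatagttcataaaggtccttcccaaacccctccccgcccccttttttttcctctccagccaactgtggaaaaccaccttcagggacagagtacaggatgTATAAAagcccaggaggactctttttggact
Gatm: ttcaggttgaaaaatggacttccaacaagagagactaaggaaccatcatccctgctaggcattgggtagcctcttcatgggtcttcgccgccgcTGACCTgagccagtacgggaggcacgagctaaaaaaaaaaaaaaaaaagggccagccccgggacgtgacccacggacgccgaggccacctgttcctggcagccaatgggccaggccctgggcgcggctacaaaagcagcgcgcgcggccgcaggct
Miox: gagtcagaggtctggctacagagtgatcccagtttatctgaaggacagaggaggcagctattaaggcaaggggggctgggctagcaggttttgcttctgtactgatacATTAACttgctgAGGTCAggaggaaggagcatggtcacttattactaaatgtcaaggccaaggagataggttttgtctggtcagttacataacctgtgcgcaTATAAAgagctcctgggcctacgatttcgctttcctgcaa
Hpd: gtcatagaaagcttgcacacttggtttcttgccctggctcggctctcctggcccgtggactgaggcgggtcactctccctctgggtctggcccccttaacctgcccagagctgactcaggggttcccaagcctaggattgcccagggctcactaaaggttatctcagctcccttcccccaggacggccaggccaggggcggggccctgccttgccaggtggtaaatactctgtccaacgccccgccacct
Pck1: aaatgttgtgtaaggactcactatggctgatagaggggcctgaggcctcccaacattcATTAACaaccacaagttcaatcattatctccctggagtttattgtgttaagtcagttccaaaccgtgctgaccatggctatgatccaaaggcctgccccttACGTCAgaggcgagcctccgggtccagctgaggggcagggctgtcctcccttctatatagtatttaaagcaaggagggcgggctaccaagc
G6pc: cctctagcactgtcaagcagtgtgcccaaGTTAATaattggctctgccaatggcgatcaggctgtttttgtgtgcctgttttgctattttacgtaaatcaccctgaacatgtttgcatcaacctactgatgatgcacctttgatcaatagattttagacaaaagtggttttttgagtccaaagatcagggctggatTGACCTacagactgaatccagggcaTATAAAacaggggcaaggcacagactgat
The motifs were searched on both strands in the 10 windows of the 9 genes (Acsm2 has a second start site, with no match) and of 32851 RefSeq start sites of the same length, and none of them contains another. A match is a description of letters and not a binding site. TATAAA, the TATA box, stands in 4 of the 9 genes and 12.4% of all windows. Its first base lies at -31 in Kap, -40 in Miox, -29 in G6pc and -28 in Acsm2, counted back from the start site. GTTAAT, a core of the site of the hepatocyte nuclear factor HNF1, stands in 5 genes (Pck1, G6pc, Khk, Miox and Acsm2) and 6.43% of all windows. ACGTCA, the core of a cyclic AMP response element, stands at -91 to -86 of Pck1, in 1 of 9 genes and 6.47% of windows. AGGTCA, a core element of nuclear receptors, stands in Gatm, Miox and G6pc and in 14.0% of windows. CAAAGT, a core of the HNF4 site (12.6% of windows), and AGAACA, a core of the steroid receptor element (16.1% of windows), were in none of the 10 windows.

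Values are log2 RMA signals, on which a difference of 1 is a doubling, and errors of groups are standard deviations over 4 arrays. A gene was called when its adjusted p was below 0.05, in limma with Benjamini-Hochberg adjustment over 19938 genes, and every adjusted p comes from that test. The targeted gene Kl was at 10.67, 10.45, 10.74 and 10.58 in vehicle, at 10.45, 10.54, 10.61 and 10.44 after FGF23 and at 9.66, 9.76, 9.66 and 9.8 in KL null. It was 1.85-fold lower in KL null than in vehicle (adjusted p = 1.75e-05), and whether its probes lie in the inactivated part of the gene could not be checked. The standard deviation of all log2 values on an array was 2.166 and 2.167 in FGF23 replicates 1 and 2, 2.195 and 2.217 in KL null replicates 1 and 2, and 2.23 to 2.281 on the other arrays, so FGF23 replicates 1 and 2 had the lowest spread and KL null replicate 2 lay close to the other arrays. The mean log2 signal of 22 proximal tubule markers was 11.49 to 11.61 in vehicle, a value that cannot be set against a background here. In whole kidney, fewer cells of a type and less RNA per cell cannot be told apart. Levels of different genes are not compared, because probe sets differ in brightness.

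KL null kidneys had lower signals than vehicle kidneys for Kap and for 4 enzymes of different pathways, namely Gatm of creatine synthesis, Miox of inositol breakdown, Acsm2 of acyl-CoA formation and Fbp1 of gluconeogenesis, while Hpd of tyrosine breakdown was higher. The test called 5 of the 9 genes lower (Kap, Gatm, Miox, Acsm2 and Fbp1), against 4.44% of all genes. Hpd rose, against 3.58% of all genes called higher, and Khk, G6pc and Pck1 did not pass. An unadjusted p below 0.05 was found for 7 of the 9, against 21.3% of all genes. The log2 differences ran from -1.50 for Kap to 0.80 for Hpd, with a median of -0.34 beside 0.02 over all genes tested. The 4 KL null arrays did not overlap the 4 vehicle arrays for any of the 6 called genes, and groups were apart in this way for 7.44% of all genes downward and 6.35% upward. Over all genes 885 were called lower and 713 higher, and centring each array on its median moved that split to 1369 lower and 453 higher. With only genes at or above the median mean signal, which include all 9, 1168 were called lower and 693 higher. The share over all genes therefore understates how often such bright genes were called lower. The 9 genes were chosen with earlier results of these data known, so the shares do not test the set.

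**Figure D1:**
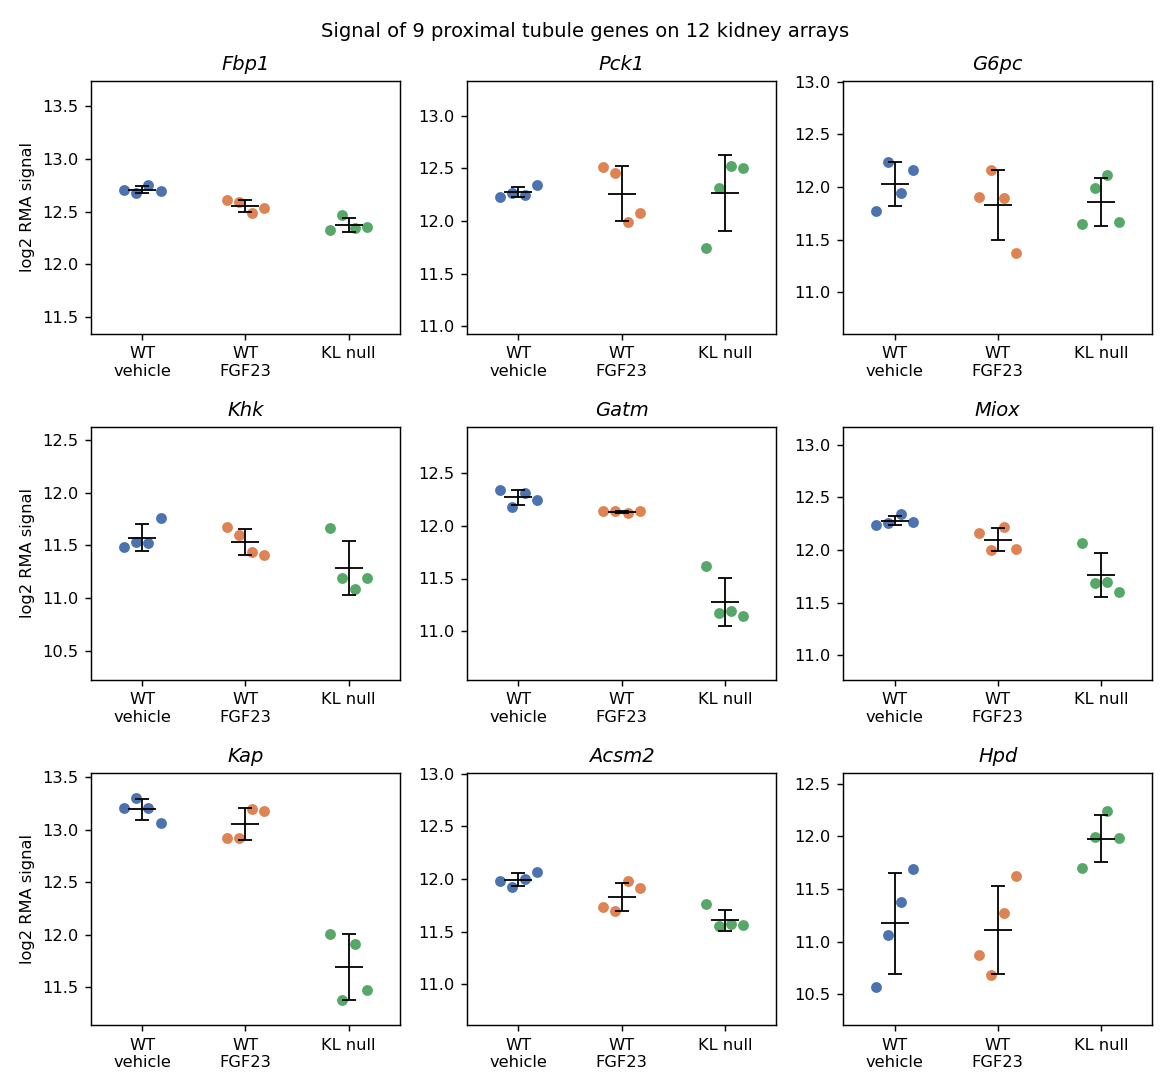
Log2 signal of each of the 9 genes (1 panel per gene, y axes of their own) on every array in the vehicle, FGF23 and KL null groups, with the group mean and standard deviation over 4 arrays. Kap lies between 11.38 and 12.01 on the KL null arrays and between 12.92 and 13.3 on the 8 wild-type arrays, whereas the Pck1 values of KL null, 11.74 to 12.52, span those of vehicle.

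Among the enzymes of glucose synthesis, Fbp1 hydrolyses fructose-1,6-bisphosphate and is the step that opposes phosphofructokinase. It was at 12.71, 12.68, 12.75 and 12.7 in vehicle, at 12.61, 12.59, 12.49 and 12.53 after FGF23 and at 12.33, 12.47, 12.34 and 12.35 in KL null. The 3 groups did not overlap, with vehicle highest and KL null lowest. Fbp1 was 1.26-fold lower in KL null than in vehicle (log2 -0.34, SE 0.0707, adjusted p = 0.00895). This call was lost after a further quantile normalization (log2 -0.16, adjusted p = 0.215).

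Pck1 converts oxaloacetate to phosphoenolpyruvate and commits carbon to glucose synthesis. It was at 12.23, 12.27, 12.25 and 12.34 in vehicle, at 12.51, 12.46, 11.99 and 12.08 after FGF23 and at 11.74, 12.31, 12.52 and 12.5 in KL null. The group means were 12.27, 12.26 and 12.27, and the standard deviation was 0.05 in vehicle against 0.26 after FGF23 and 0.36 in KL null. KL null replicate 1 was the lowest of all 12 arrays and KL null replicate 3 the highest. The difference of KL null from vehicle was log2 -0.01 with a 95% interval from -0.34 to 0.33 (adjusted p = 0.993), and it turned to 0.17 without KL null replicate 1 (adjusted p = 0.494). The values of Pck1 after FGF23 fell into a high pair, replicates 1 and 2, and a low pair, and replicates 1 and 2 are the arrays of lowest spread. The part of array spread in that split was not tested.

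G6pc releases free glucose from glucose-6-phosphate in the endoplasmic reticulum. It was at 11.77, 12.24, 11.94 and 12.16 in vehicle, at 11.9, 12.16, 11.89 and 11.37 after FGF23 and at 11.65, 11.99, 12.11 and 11.67 in KL null. The 3 groups overlapped, and the lowest value was that of FGF23 replicate 4. KL null differed from vehicle by log2 -0.17 with an interval from -0.51 to 0.17 (adjusted p = 0.608).

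The gluconeogenesis list, with Fbp1, Pck1 and G6pc in it, had 17 of 19 genes measured. In KL null against vehicle 1 of these was called, Fbp1 itself, and the median log2 difference was -0.05. The mitochondrial carboxykinase Pck2 differed by log2 0.21 (adjusted p = 0.351), pyruvate carboxylase Pcx by -0.15 (0.5), the muscle-type bisphosphatase Fbp2 by 0.18 (0.395) and the ubiquitous phosphatase G6pc3 by -0.14 (0.441). The glucose-6-phosphate carrier Slc37a4 differed by 0.25 (adjusted p = 0.231) and the basolateral glucose carrier Slc2a2 by -0.10 (0.811). The lowering of Fbp1 stood beside 16 other genes of the list for which no change passed the test.

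The list of 22 measured regulators, out of 26, held 3 genes that fell and 0 that rose, with a median of -0.02. The growth hormone receptor Ghr fell from 11.74 ± 0.03 to 11.01 ± 0.13 (log2 -0.73, adjusted p = 0.000506) and the parathyroid hormone receptor Pth1r from 10.78 ± 0.19 to 10.19 ± 0.13 (-0.59, 0.00219). The nuclear receptor Hnf4a, a regulator of both liver and proximal tubule genes, fell from 11.23 ± 0.11 to 10.88 ± 0.07 (log2 -0.35, adjusted p = 0.0177). The Hnf4a call was lost without vehicle replicate 3 (adjusted p = 0.0687), without KL null replicate 2 (0.0506), after a further quantile normalization (0.0835) and without replicates 1 and 2 of both FGF23 and KL null (0.102). The coactivator Ppargc1a, at 9.85 ± 0.16 and 10.03 ± 0.05 (adjusted p = 0.263), and the forkhead factor Foxo1, at 8.75 ± 0.16 and 8.70 ± 0.27 (0.880), did not pass.

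Khk, ketohexokinase, phosphorylates fructose and so starts its breakdown. It was at 11.48, 11.53, 11.52 and 11.76 in vehicle, at 11.67, 11.6, 11.44 and 11.41 after FGF23 and at 11.66, 11.19, 11.09 and 11.19 in KL null. KL null replicates 2, 3 and 4 lay below every wild-type array, and KL null replicate 1 lay inside the wild-type range. The difference from vehicle was log2 -0.29 with an interval from -0.54 to -0.04 and an adjusted p of 0.162. Without KL null replicate 1 it was -0.42 and passed (adjusted p = 0.0143).

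Of the 8 measured genes of the fructose and polyol list of 12, 1 rose and 1 fell, with a median of -0.1. Tkfc, the triokinase that takes up the glyceraldehyde made downstream of Khk, fell from 10.64 ± 0.12 to 10.01 ± 0.21, a 1.55-fold lower signal (adjusted p = 0.00653). Slc2a9, a carrier of urate and hexoses, rose from 7.75 ± 0.09 to 8.33 ± 0.14 (log2 0.58, adjusted p = 0.00132). The fructose carrier Slc2a5 was at 9.31 ± 0.24 and 9.55 ± 0.07 (adjusted p = 0.279).

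Gatm, the mitochondrial amidinotransferase that makes guanidinoacetate for creatine, was at 12.34, 12.18, 12.31 and 12.25 in vehicle. It was at 12.14, 12.14, 12.12 and 12.14 after FGF23 and at 11.62, 11.17, 11.19 and 11.14 in KL null. KL null lay below both wild-type groups, with replicate 1 nearest to them. Gatm was 1.99-fold lower in KL null than in vehicle (log2 -0.99, SE 0.0994, adjusted p = 3.55e-05), and the difference was -1.10 without KL null replicate 1.

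The creatine and arginine list had 14 of 15 genes measured, 0 called higher and 2 lower, with a median of -0.02. Beside Gatm it was Odc1, ornithine decarboxylase of polyamine synthesis, that fell, from 11.69 ± 0.21 to 10.55 ± 0.11, a 2.20-fold lower signal (adjusted p = 6.17e-05). The methyltransferase Gamt, which completes creatine synthesis, differed by log2 -0.29 (adjusted p = 0.142), the creatine carrier Slc6a8 by -0.02 (0.949) and brain-type creatine kinase Ckb by -0.26 (0.36).

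Miox cleaves myo-inositol to glucuronate and is the entry to renal inositol breakdown. It was at 12.24, 12.26, 12.34 and 12.27 in vehicle, at 12.16, 12, 12.22 and 12.01 after FGF23 and at 12.07, 11.69, 11.7 and 11.6 in KL null. KL null lay below vehicle on all arrays, and its replicate 1 lay within the FGF23 values. Miox was 1.43-fold lower in KL null than in vehicle (log2 -0.51, SE 0.0996, adjusted p = 0.00553).

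The inositol and glucuronate list moved both ways, with 2 of 12 measured genes higher and 2 lower (15 entries) and a median of 0.08. Xylb, the xylulokinase at the end of the glucuronate route, fell from 10.66 ± 0.12 to 10.28 ± 0.09 (log2 -0.38, adjusted p = 0.0118). Ugdh, which makes UDP-glucuronate, rose from 10.31 ± 0.15 to 10.77 ± 0.02 (log2 0.45, adjusted p = 0.00579). The inositol carrier Slc5a3 was at 10.99 ± 0.19 and 11.30 ± 0.18 (adjusted p = 0.132).

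Kap is known for its dependence on androgen and other steroid hormones in mouse kidney. It was at 13.2, 13.3, 13.2 and 13.06 in vehicle, at 12.92, 12.92, 13.19 and 13.18 after FGF23 and at 12.01, 11.38, 11.91 and 11.48 in KL null. KL null lay below every wild-type array by a wide margin. Kap was 2.82-fold lower in KL null than in vehicle (log2 -1.50, SE 0.131, adjusted p = 1.05e-05), the widest difference among the 9 genes.

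Genes that differ by sex or respond to androgen in mouse kidney moved in both directions. Of 19 measured genes of a list of 20, 6 rose and 6 fell, with Kap and Odc1 among those that fell, and the median was 0.02. The list was not divided by the sex in which a gene is higher, so these counts cannot show whether direction followed sex bias. Akr1c18, a hydroxysteroid dehydrogenase, fell from 12.23 ± 0.34 to 7.54 ± 0.70 (log2 -4.69, adjusted p = 2.78e-06), and the organic anion carrier Slc22a7 from 10.29 ± 0.42 to 5.69 ± 0.28 (-4.61, 2.78e-06). The amino acid carrier Slc7a12 fell from 12.15 ± 0.07 to 11.17 ± 0.20 (log2 -0.98, adjusted p = 0.00211). Slc7a13 rose from 5.79 ± 0.19 to 9.31 ± 1.40 (log2 3.52, adjusted p = 0.000506) and Cyp2e1 from 9.97 ± 0.35 to 11.31 ± 0.35 (1.33, 0.000388). The fatty acid hydroxylase Cyp4a12b rose by log2 1.81 (adjusted p = 6.9e-05), and its near-identical paralog Cyp4a12a by 1.36 (0.00126), so the probes may share signal. Gusb, a classical androgen-responsive gene of mouse kidney, differed by -0.04 (adjusted p = 0.843).

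Acsm2 activates medium-chain and aromatic acids to acyl-CoA, the step before glycine conjugation. It was at 11.98, 11.92, 12 and 12.07 in vehicle, at 11.73, 11.7, 11.98 and 11.91 after FGF23 and at 11.76, 11.55, 11.57 and 11.56 in KL null. KL null lay below vehicle, and its replicate 1 lay above 2 of the FGF23 arrays. Acsm2 was 1.30-fold lower in KL null than in vehicle (log2 -0.38, SE 0.0862, adjusted p = 0.0135). Acsm genes are paralogs, and 1 further probe set annotated to Acsm2 and other genes was not used.

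The acyl-CoA and glycine conjugation list had 5 of 11 measured genes lower and 0 higher (13 entries), with a median of -0.28. Acsm1, the neighbour of Acsm2 in function, fell from 11.12 ± 0.17 to 9.85 ± 0.26, a 2.41-fold lower signal (adjusted p = 5.89e-05). Keg1, a kidney glycine acyltransferase, fell from 12.49 ± 0.17 to 11.57 ± 0.11 (log2 -0.92, adjusted p = 0.000187), and the mitochondrial acetyl-CoA synthetase Acss1 by 0.42 on the log2 scale (adjusted p = 0.00537). The glycine acyltransferase Glyat differed by -0.20 (adjusted p = 0.257) and Acsm3 by -0.28 (0.393).

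Hpd, 4-hydroxyphenylpyruvate dioxygenase, is a step of tyrosine breakdown and stood alone among the 9 genes in its direction. It was at 10.57, 11.06, 11.38 and 11.69 in vehicle, at 10.87, 10.68, 11.27 and 11.62 after FGF23 and at 11.7, 11.99, 12.24 and 11.98 in KL null. All KL null arrays lay above vehicle, but the lowest, 11.7, exceeded the highest vehicle array, 11.69, by the last printed decimal. Hpd was 1.74-fold higher in KL null than in vehicle (log2 0.80, SE 0.223, adjusted p = 0.0384). The spread within wild type was wide, with standard deviations of 0.48 in vehicle and 0.42 after FGF23 beside 0.22 in KL null. The call was lost on leaving out any of vehicle replicates 1, 2 or 3 (adjusted p = 0.121, 0.0825 and 0.0649) or of KL null replicates 2, 3 or 4 (0.085, 0.119 and 0.0727), and after centring arrays (0.0557).

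The tyrosine and phenylalanine list had 11 of 12 genes measured, 1 higher (Hpd) and 1 lower, with a median of -0.1. Ddc, the decarboxylase that makes dopamine in the proximal tubule, fell from 10.05 ± 0.11 to 9.47 ± 0.06 (log2 -0.58, adjusted p = 0.000439). The enzymes after Hpd in the route did not pass, with Hgd at log2 -0.19 (adjusted p = 0.176), Gstz1 at -0.08 (0.707) and Fah at -0.15 (0.423). The aminotransferase Tat before it differed by 0.01 (adjusted p = 0.988).

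**Figure D2:**
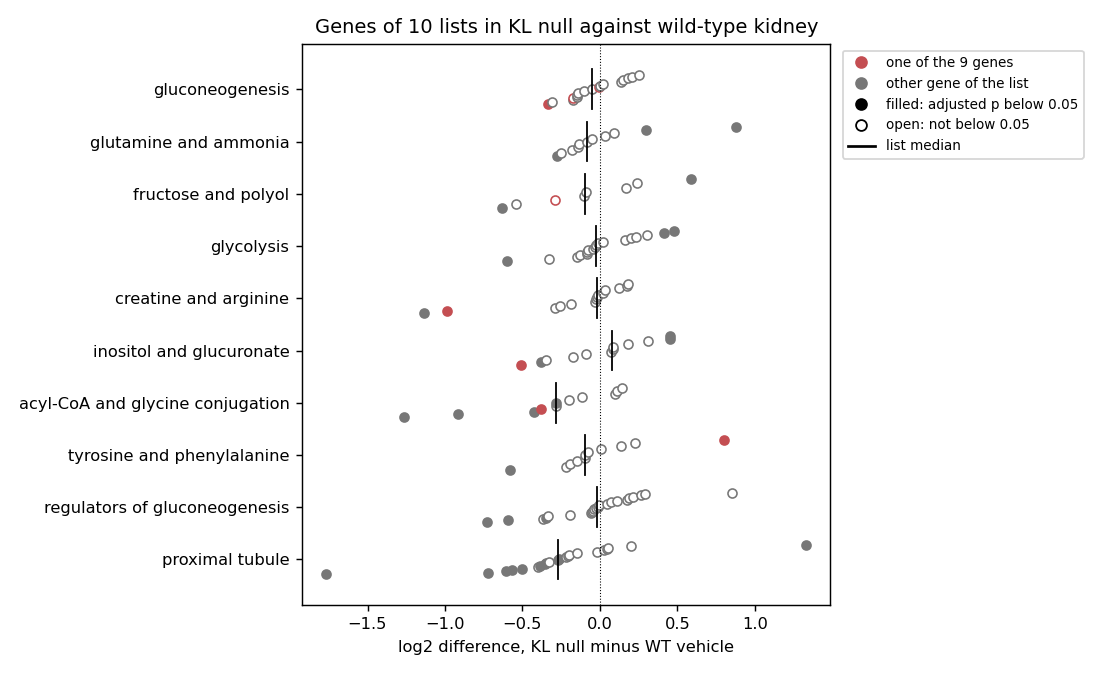
Log2 difference of KL null minus vehicle for every measured gene of 9 metabolic and regulator lists and of the proximal tubule markers (1 point per gene), with a bar at each list's median, filled points where the adjusted p is below 0.05, and the chosen genes in red (Kap, in the sex-responsive list, is not plotted). Gatm, at -0.99, lies far below its list's median of -0.02, while Hpd, at 0.80, lies above a list median of -0.1.

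Markers of the segment and of other cells moved with these differences. Of 22 measured proximal tubule markers (24 entries) 10 fell and 1 rose in KL null, with a median of -0.27, and their mean log2 signal was 11.25 to 11.34 in KL null beside 11.49 to 11.61 in vehicle. The endocytic receptor Lrp2 fell from 12.72 ± 0.09 to 12.22 ± 0.02 (log2 -0.50, adjusted p = 0.00175). Single markers spread widely about the median. Among the 10 that fell, Aadat went from 12.36 ± 0.08 to 10.59 ± 0.29 and Slc34a1 from 12.93 ± 0.08 to 12.66 ± 0.03, while Cyp2e1 was the 1 that rose. Beside that list median stood -1.50 for Kap, -0.99 for Gatm, -0.51 for Miox, -0.38 for Acsm2, -0.34 for Fbp1, -0.29 for Khk, -0.17 for G6pc, -0.01 for Pck1 and 0.80 for Hpd, and the difference between the genes and the markers was not tested.

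Of 11 measured tubule injury genes (12 entries), 7 rose and 0 fell, with a median of 0.57. Their mean log2 signal was 6.83 to 7.51 in vehicle, 7.0 to 7.43 after FGF23, and 7.45, 7.87, 8.01 and 8.11 in KL null replicates 1 to 4. Among these genes Havcr1 had by far the widest spread in wild type. Its standard deviation was 2.54 in vehicle and 2.34 after FGF23, beside 0.53 in KL null. The means were not recomputed without Havcr1, so its part in the wild-type ranges, which reach KL null replicate 1 in vehicle, was not tested. Of 11 immune cell markers 5 rose and 1 fell, with a median of 0.41, and their mean was 6.57 to 7.04 in vehicle and 6.92 to 7.47 in KL null. KL null replicate 1, the array with the lowest injury mean of its group, was also the one nearest to wild type for Gatm, Miox, Acsm2, Khk, Kap and Hpd. For Fbp1, Pck1 and G6pc it was instead the lowest of the KL null arrays, at 12.33, 11.74 and 11.65. The part of injury or immune cells in the differences was not tested. Without this array Kap differed from vehicle by log2 -1.60, Gatm by -1.10, Miox by -0.61 and Acsm2 by -0.43, each still called.

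**Figure D3:**
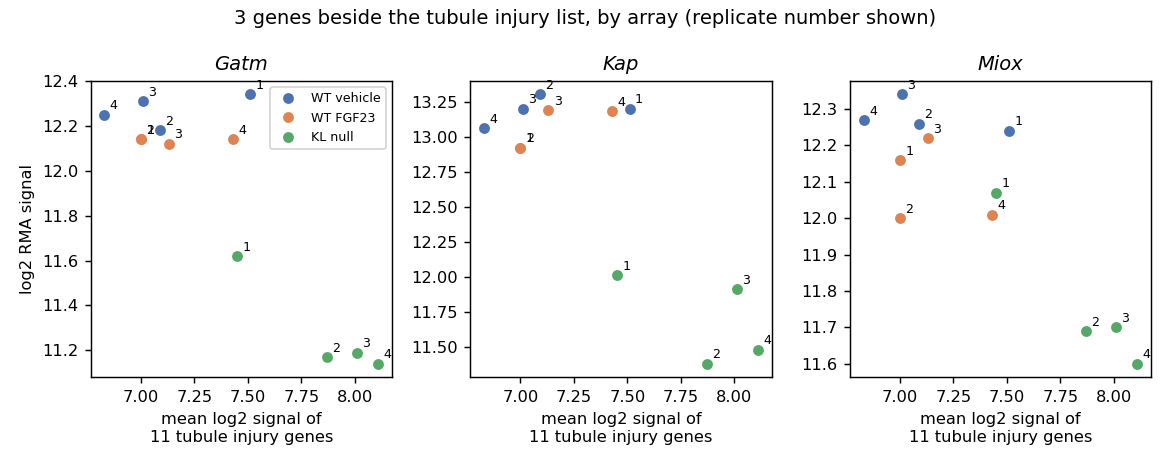
Log2 signals of Gatm, Kap and Miox, the 3 genes with the widest fall (y), against the mean log2 signal of 11 tubule injury genes (x), on each of the 12 arrays, coloured by group and numbered by replicate. KL null replicate 1, with an injury mean of 7.45, has the highest Gatm (11.62), Kap (12.01) and Miox (12.07) of the KL null arrays. The injury mean includes Havcr1, whose standard deviation was 2.54 in vehicle and 2.34 after FGF23.

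Markers of neighbouring tissue were checked because Hpd and other enzymes of the set are abundant in liver. Of 8 measured liver markers (9 entries) 1 rose and 2 fell in KL null, and their mean was 6.5 to 6.71 in vehicle and 6.35 to 6.63 in KL null. Of 7 adipocyte markers (8 entries) 0 were called in limma, 0 had an unadjusted p below 0.05, and their mean was 5.28 to 5.56 in vehicle and 5.32 to 5.52 in KL null. Markers of endothelium (0 of 8 called in limma, 5 with an unadjusted p below 0.05) had a median of -0.22. Those of podocytes (1 of 6 lower, 5 with such a p) had a median of -0.27, as did the proximal tubule markers. Collecting duct markers (0 of 11 called, 2 with such a p) had a median of -0.14. For thick limb and distal tubule (2 of 10 higher, 1 lower, 4 with such a p) the median was 0.07.

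For each of the 6 called genes, the 2 named genes with the most similar course over the 12 arrays were found by the root mean square difference of values centred on each gene's mean, over 18216 genes. The closest to Gatm was the membrane protein gene Tmem64, at a distance of 0.082, which went from 11.16 ± 0.10 in vehicle to 10.13 ± 0.20 in KL null. Paqr9, at 0.094, went from 9.53 ± 0.16 to 8.47 ± 0.26. Gatm itself has a root mean square of 0.454 about its mean. Both neighbours fell by over 1 log2 unit (adjusted p = 2.21e-05 for Tmem64 and 9.73e-05 for Paqr9).

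The closest genes to Kap, whose own root mean square was 0.698, were the organic anion and phosphate carrier Slc17a3 (distance 0.191, log2 -1.49 in KL null against vehicle) and Map3k7cl (0.194, -1.57). To Miox (0.244) they were the scaffold Pdzk1, which holds carriers at the brush border (0.07, log2 -0.49), and thromboxane synthase Tbxas1 (0.075, -0.48). To Acsm2 (0.181) they were the glucuronosyltransferase-family gene Ugt3a2 (0.052, -0.34) and Apmap (0.055, -0.37). To Fbp1 (0.145) they were the oligosaccharyltransferase subunit Stt3b (0.046, -0.27) and the nucleotidase Bpnt1 (0.051, -0.26). Hpd (0.519) had no equally close course: the nearest were the macrophage lectin Clec7a (0.238, 0.72) and the transporter Abca13 (0.242, 0.71). The distances describe 12 arrays and the genes were found by likeness, so their differences add no independent support.

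None of the 9 genes passed the test 1 hour after FGF23. Limma called 0 of 9, against 0.0853% of all genes called (0.00502% lower and 0.0802% higher), and 1 of 9 had an unadjusted p below 0.05, against 15.4% of all genes. The unmoderated linear model also called 0. All 9 log2 differences were negative, from -0.20 for G6pc to -0.01 for Pck1. Their median was -0.14, beside 0.04 over all genes and -0.04 over the genes at or above the median mean signal. The sign count fell to 7 of 9 after a further quantile normalization, when Pck1 and Khk turned positive. It fell to 6 of 9 without vehicle replicate 4, when Pck1, Khk and Hpd turned positive. The FGF23 arrays lay wholly below vehicle for 3 genes (Fbp1, Gatm and Miox), against 2.92% of all genes, and wholly above for 0, against 4.09%. The 22 proximal tubule markers had a median of -0.1 after FGF23. Their mean log2 signal was 11.43 to 11.49, beside 11.49 to 11.61 in vehicle. Medians were -0.13 for immune cells, -0.11 for podocytes and for collecting duct, and -0.08 for thick limb and distal tubule. Those for tubule injury, liver, endothelium and adipocytes were 0.05, 0.07, 0.09 and 0.15. Differences between the 9 genes and these lists were not tested.

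No difference of FGF23 from vehicle lay beyond -0.20 on the log2 scale. Fbp1 had the smallest p, with log2 -0.16 (SE 0.0707, adjusted p = 0.316). Miox differed by -0.18 with an interval from -0.39 to 0.03 (adjusted p = 0.387) and Gatm by -0.14 with one from -0.35 to 0.08 (0.503). Acsm2 differed by -0.16 (adjusted p = 0.371), Kap by -0.14 (0.607), G6pc by -0.20 (0.536), Khk by -0.04 (0.876), Hpd by -0.07 (0.901) and Pck1 by -0.01 (0.975). The interval of Kap, from -0.42 to 0.14, and those of Gatm, Miox, Acsm2 and Fbp1 do not reach the point estimates of KL null. That of Hpd, from -0.54 to 0.41, is wide but ends below the 0.80 estimated for KL null. The intervals of G6pc (-0.535 to 0.14), Khk (-0.294 to 0.209) and Pck1 (-0.347 to 0.322) include their KL null estimates. The KL null differences have intervals of their own. These also overlap the FGF23 intervals for Miox (-0.725 to -0.3), Acsm2 (-0.566 to -0.199), Fbp1 (-0.488 to -0.187) and Hpd (0.328 to 1.277). Both differences share the vehicle arrays, so comparing intervals does not test KL null against FGF23. In the direct limma comparison Fbp1 and Acsm2 were not called (adjusted p = 0.108 and 0.112).

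In the 2 arrays of lowest spread, FGF23 replicates 1 and 2, Kap was at 12.92 on both and Acsm2 at 11.73 and 11.7, below every vehicle array, while replicates 3 and 4 lay within or near the vehicle range. Without these arrays the difference of Kap was log2 -0.00 and that of Acsm2 -0.05, whereas that of Fbp1 was -0.20, and the adjusted p was 0.996 for both Kap and Fbp1. Over the 10 metabolic, regulator and sex-responsive lists, 0 of 138 genes were called after FGF23 in limma. An unadjusted p below 0.05 was found for 19 of the 138, against 15.4% of all genes. The list medians were -0.2 for sex-responsive genes, -0.16 for acyl-CoA and glycine conjugation, -0.1 for tyrosine and phenylalanine and -0.08 for inositol and glucuronate. Glutamine and ammonia was at -0.04, as was creatine and arginine, with fructose and polyols at -0.03 and gluconeogenesis at -0.02. The medians of glycolysis, at 0.01, and of the regulators, at 0.04, were positive, beside 0.04 over all genes.

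**Figure D4:**
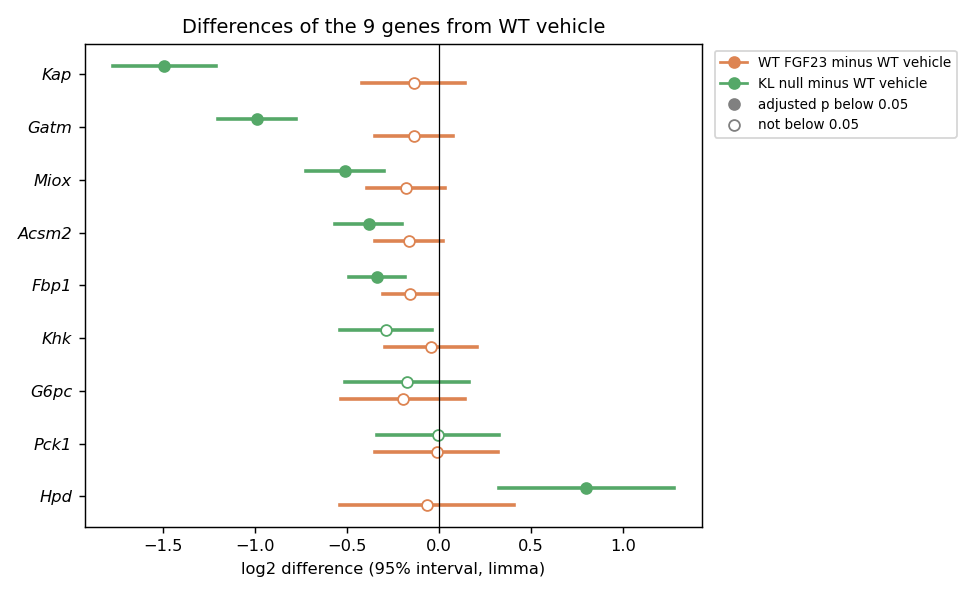
Log2 differences of the 9 genes for FGF23 minus vehicle and KL null minus vehicle, with 95% intervals from the limma fit over 12 arrays and filled points where the adjusted p is below 0.05. All FGF23 points lie between -0.20 and -0.01 and are open, and the filled KL null points run from Kap at -1.50 to Hpd at 0.80.

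The KL null arrays were also compared with the FGF23 arrays, which share the wild-type genotype of vehicle but not its injection. The test called 3 genes lower (Kap, Gatm and Miox, against 5.25% of all genes) and 1 higher (Hpd, against 6.72%), and 6 had an unadjusted p below 0.05, against 27.3% of all genes. Groups were apart downward for 3 (Fbp1, Gatm and Kap, against 8.15% of all genes) and upward for Hpd (against 7.95%). The KL null arrays enter both comparisons, so the values are given side by side and not as a repeat. Kap was 2.56-fold lower (adjusted p = 2.89e-05) and Gatm 1.81-fold lower (0.000109). Miox differed by log2 -0.33 with overlapping groups (adjusted p = 0.0416), a call that was lost on leaving out any one of 10 of the 12 arrays and kept without KL null replicate 1 or vehicle replicate 4.

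Hpd was 1.82-fold higher in KL null than after FGF23 (adjusted p = 0.0207), which was lost without FGF23 replicate 1 (0.0579), FGF23 replicate 2 (0.073) or KL null replicate 3 (0.0725). Fbp1 differed by log2 -0.18 (adjusted p = 0.108), Acsm2 by -0.22 (0.112), Khk by -0.25 (0.19), G6pc by 0.03 (0.934) and Pck1 by 0.01 (0.981). Over all 8 wild-type arrays, KL null lay wholly below for Fbp1, Gatm and Kap, as for 4.35% of all genes, and wholly above for Hpd, as for 3.78%. For Fbp1 that margin was 12.47 against 12.49, and for Hpd 11.7 against 11.69.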

How the data were processed

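The authors deposited log2 expression values per probe set, computed by RMA using Partek 6.2, as listed in the submitters' processing notes and per the labels. RMA summarises probes on a log scale and compresses differences of dim probe sets. Background settings, scanner files and detection calls were not used here.

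Of 28853 probe sets, 21789 had 1 gene symbol in the platform annotation, 1621 several and 5443 none. The probe set with the highest mean stood for a gene, giving 19938 genes, 999 of them with several probe sets. All value columns were mapped to samples by their labels. The moderated two-sided test of limma (version 3.58.1, run under R 4.3.3) was applied in 1 fit of 3 group means to 12 arrays, with 9 residual degrees of freedom, after tests on simulated data. The 4 arrays per group limit the precision.

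The 9 genes, the 19 lists, the motifs and the rule for naming others were chosen with earlier results of these data known. The rule names up to 3 called genes of smallest p per metabolic, regulator or sex-responsive list and the 2 genes most like each called gene. Further list genes, mostly neighbouring steps, were named after their values were seen. Promoters are RefSeq sequences of GRCm38.p6, found for all 9 genes. Python 3.11.15 was used with pandas 2.3.3 for tables and with matplotlib 3.10.9 for figures.

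Replicate numbers are shared between groups. Deviations of same-numbered arrays from their group means correlated at -0.216 to 0.259, over 0.1 in 7 of 12 pairs. All 4 pairs of FGF23 with KL null were over 0.1 (0.143 to 0.259), but arrays of different number correlated there at up to 0.238. FGF23 replicate 2 correlated more with KL null replicate 1 (0.185) than with replicate 2 (0.143). These correlations therefore cannot settle whether the numbers pair arrays. Pairs with vehicle were not all over 0.1. The numbers were not taken as pairs in any comparison, and a replicate block in KL null against FGF23 changed no call of the 9 genes.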

Additional observations from a re-analysis of the deposited data

Results flagged for a closer look

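In groups of 4 arrays, the gap of the highest or lowest array to the nearest other was set against the range of the group, and 11 of 216 groups of 72 genes stood out, 4 of them among the 27 groups of the 9 chosen genes. Chance alone gives about 1 in 20. KL null replicate 1 was the highest of its group for Gatm, at 11.62 with the others at 11.14 to 11.19, and for Acsm2, at 11.76 with the others at 11.55 to 11.57. KL null replicate 2 was the highest for Fbp1, at 12.47 with the others at 12.33 to 12.35. FGF23 replicate 3 was the lowest for Gatm, at 12.12 with the others all at 12.14, a gap of 2 units of the last decimal. Among other genes, KL null replicate 1 was low for Foxo1 (8.3, others 8.82 to 8.86) and Cyp2e1 (10.79, others 11.42 to 11.52) and high for Hgd (11.73, others 11.48 to 11.49), and vehicle replicate 4 was high for Glyat (10.41, others 10.09 to 10.12). Among the genes most like the chosen ones, Slc17a3 was low in vehicle replicate 2 (11.51, others 11.74 to 11.78), Ugt3a2 was high in vehicle replicate 4 (12.17, others 11.94 to 11.96) and Abca13 was low in KL null replicate 2 (10.5, others 10.65 to 10.68).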

How the results depend on the processing

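Each result was recomputed under 24 alternatives, 12 of which leave out 1 array. In KL null against vehicle, Gatm, Kap, Miox and Acsm2 passed under all 24 (highest adjusted p 0.00242, 0.00242, 0.0234 and 0.0464), Fbp1 under 23, Hpd under 15 and Khk under 4. Leaving out 1 array gave 5 to 6 genes lower and 0 to 1 higher, and 828 to 1728 of all genes called. No gene was called higher with arrays centred on their median, trended robust moderation or the unmoderated linear model (0 of 9 each), and array weights called 2852 of all genes. Pck1 turned positive after quantile normalization (0.16), with array weights (0.12), without replicates 1 and 2 of both FGF23 and KL null (0.24, an alternative chosen after seeing the data), and ranged from -0.0892 to 0.17 leaving out 1 array. In that last alternative with 4 arrays out, Khk was called lower (-0.43, adjusted p = 0.0246).

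In FGF23 against vehicle, 0 of 9 genes were called under every alternative. Pck1 (0.0626) and Khk (0.0224) turned positive after quantile normalization, and Hpd with array spread as a covariate (0.22), with array weights (0.18) and without FGF23 replicates 1 and 2 (0.27, and 0.27 with 4 arrays out). Leaving out 1 array, Pck1 ranged from -0.10 to 0.0775, Khk from -0.0892 to 0.02 and Hpd from -0.27 to 0.11. The 17 genes called over the whole array became 9 after quantile normalization, 5 with centring, 11 with the spread covariate, 2 unmoderated, 7 with only both groups, 6 with the replicate block, 8 without FGF23 replicates 1 and 2, 9 with 4 arrays out and 4 to 14 leaving out 1 array.

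In KL null against FGF23, trended robust moderation called 5 genes lower, and 0 were called higher with it, with the spread covariate, unmoderated, or without FGF23 replicates 1 and 2. The 2386 genes called over the whole array became 944 without FGF23 replicates 1 and 2, 1166 with 4 arrays out and 1218 to 2794 leaving out 1 array. Leaving out 1 array gave 2 to 4 genes lower and 0 to 1 higher, and Pck1 ranged from -0.0825 to 0.18 and G6pc from -0.13 to 0.14. With 4 arrays out the gene called higher was Pck1 (0.475, adjusted p = 0.0174), and Hpd was not called (0.665, adjusted p = 0.204). The causes were not tested. With the replicate number as a block, the counts of the 9 genes called were the same in all 3 comparisons, the numbers of all genes called were 6, 1548 and 2396, and 6 of 12 arrays correlated best with their own number. Of 57 other genes named, 33 were called in KL null against vehicle, 28 of these under every alternative, and none of the 33 changed sign. Among genes that were not called, sign changed after quantile normalization for Slc2a2 (0.0185), Slc6a8 (0.0346), Gstz1 (0.0253), Glud1 (0.005) and Tat (-0.063), and with 4 arrays out for Foxo1 (0.0875), Glul (0.025) and Tat (-0.0425). Tat was also at -0.05 with centring, -0.0254 with the spread covariate and -0.0201 with array weights. Leaving out 1 array, Foxo1 ranged from -0.1058 to 0.0808, Slc6a8 from -0.0958 to 0.0242, Gusb from -0.0783 to 0.005 and Tat from -0.0558 to 0.0975. Signal over background could not be assessed from these values.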

Other observations

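Genes that feed carbon into renal gluconeogenesis moved singly in KL null kidney. Of 11 measured genes of glutamine and ammonia metabolism (12 entries) 2 rose and 1 fell, with a median of -0.08. Slc38a3, the carrier that takes up glutamine for ammonia production, rose from 9.42 ± 0.30 to 10.30 ± 0.34 (log2 0.88, adjusted p = 0.0151). This call was lost without vehicle replicate 1 (0.0578), without KL null replicate 2 (0.054) and in the unmoderated linear model (0.073). Glutamine synthetase Glul was at 11.48 ± 0.15 and 11.34 ± 0.24 (adjusted p = 0.560) and glutamate dehydrogenase Glud1 at 11.80 ± 0.19 and 11.72 ± 0.09 (0.682).

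Of 18 measured glycolysis genes (22 entries) 2 rose and 1 fell, with a median of -0.03. The phosphoglycerate mutase Pgam1, an enzyme used in both directions of the pathway, fell from 9.71 ± 0.23 to 9.11 ± 0.08 (log2 -0.60, adjusted p = 0.00349). The salt-inducible kinase Sik1, which restrains cyclic AMP-driven gluconeogenic transcription, was at 9.34 ± 0.17 in vehicle, 9.82 ± 0.21 after FGF23 and 9.14 ± 0.17 in KL null. It passed only in KL null against FGF23 among the 3 comparisons (log2 -0.68, adjusted p = 0.00273), and FGF23 against vehicle gave 0.49 (0.234).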
